A study of Mus musculus with 16 samples.

Results

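The interferon response and major histocompatibility complex (MHC) class I genes followed here were 36 genes chosen by name from a table of 49315 mouse genes: 14 effectors of the type I interferon response, 2 cytosolic RNA sensors, 5 transcription factors, 4 interferon-induced GTPases, 3 immunoproteasome subunits, 3 genes of peptide transport and loading, and 5 class I molecules. All 36 were in the table and all 36 passed the filter on low counts. Hippocampal RNA was sequenced from 16 mice in 4 groups of 4: wild type on a standard diet, Kcna1 knockout on a standard diet, wild type on a ketogenic diet and Kcna1 knockout on a ketogenic diet. Mice without Kcna1, a subunit of a voltage-gated potassium channel of neurons, have spontaneous seizures, and a ketogenic diet replaces most carbohydrate with fat. The labels give no strain, age, sex, diet formula or length of feeding, and no separate description of the knockout allele. Libraries are called here by the animal tags of the count table, which carries no replicate number.

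Interferons bind receptors that act through Janus kinases, and the type I receptor signals through a complex that includes Stat2 and Irf9 and binds interferon-stimulated response elements in the promoters of their target genes. Interferon gamma signals to gamma-activated sites, and induces Irf1, Nlrc5, guanylate-binding proteins and the class I pathway, in which the immunoproteasome cuts peptides, Tap1 and Tap2 carry them into the endoplasmic reticulum, and class I heavy chains with B2m present them at the cell surface. In the brain these genes are best known in microglia and astrocytes responding to infection or injury, and class I molecules are also known in neurons.

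Interferon-induced genes are known to be switched on through short promoter elements, so 5 promoters that hold the letters of one are printed, with the matches in capitals. Of the 36 members, 30 had an entry in the RefSeq promoter table of GRCm38.p6, which holds 300 bases per start site, from 250 before it to 50 after it. The 6 members without an entry were Ifi27, Usp18, Parp14, Nlrc5, Iigp1 and Tap2. Each is written 5′ to 3′ on the strand of its gene.
Ifit3, chr19:34583279-34583578, plus strand: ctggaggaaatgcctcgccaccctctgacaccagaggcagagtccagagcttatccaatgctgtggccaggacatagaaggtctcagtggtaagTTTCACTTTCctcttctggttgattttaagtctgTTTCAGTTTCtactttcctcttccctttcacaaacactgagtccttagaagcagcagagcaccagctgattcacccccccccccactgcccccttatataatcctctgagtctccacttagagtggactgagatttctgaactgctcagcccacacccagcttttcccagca
Isg15, chr4:156200769-156201068, minus strand: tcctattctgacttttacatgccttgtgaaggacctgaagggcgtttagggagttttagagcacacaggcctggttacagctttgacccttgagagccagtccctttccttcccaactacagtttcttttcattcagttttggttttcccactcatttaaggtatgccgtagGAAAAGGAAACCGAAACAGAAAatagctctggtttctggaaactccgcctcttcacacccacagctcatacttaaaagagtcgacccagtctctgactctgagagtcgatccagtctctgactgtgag
Gbp2, chr3:142620413-142620712, plus strand: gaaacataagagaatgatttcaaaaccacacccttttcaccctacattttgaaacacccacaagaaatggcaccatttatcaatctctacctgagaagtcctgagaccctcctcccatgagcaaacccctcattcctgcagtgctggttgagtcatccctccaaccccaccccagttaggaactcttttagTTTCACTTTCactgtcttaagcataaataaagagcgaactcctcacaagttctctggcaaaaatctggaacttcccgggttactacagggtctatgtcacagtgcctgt
B2m, chr2:122147437-122147736, plus strand: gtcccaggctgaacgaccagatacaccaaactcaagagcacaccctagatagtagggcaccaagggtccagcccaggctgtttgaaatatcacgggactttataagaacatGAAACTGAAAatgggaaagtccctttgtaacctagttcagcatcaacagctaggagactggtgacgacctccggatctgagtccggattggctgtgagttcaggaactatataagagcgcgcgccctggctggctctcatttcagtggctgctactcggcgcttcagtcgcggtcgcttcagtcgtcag
Irf1, chr11:53769764-53770063, plus strand: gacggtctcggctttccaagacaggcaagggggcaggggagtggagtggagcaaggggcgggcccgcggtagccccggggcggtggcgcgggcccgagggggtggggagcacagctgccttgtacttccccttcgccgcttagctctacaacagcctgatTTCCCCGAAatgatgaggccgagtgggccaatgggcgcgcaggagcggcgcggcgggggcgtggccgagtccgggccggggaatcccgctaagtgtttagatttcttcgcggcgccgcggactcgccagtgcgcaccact
The letters searched were GAAA followed by any 2 bases and a further GAAA, the core of the interferon-stimulated response element, and TTCNNNGAA, the core of the gamma-activated site, on both strands and with overlapping matches allowed. Ifit3 held the first core 156 and 122 bases before the start site, and Isg15 held 3 overlapping copies whose first bases lay 78, 72 and 66 bases before it. Gbp2 and B2m held 1 copy each, 59 and 139 bases before the start site. Irf1, in the first of its windows, held no copy of the first core and 1 of the second, 90 bases before the start site. In all, 15 of the 30 members (50%) held the first core, against 3.99% of the 27025 genes in the promoter table. The second core was in 6 of the 30 members (20%), Bst2, Ifi35, Ifitm3, Irf1, Gbp7 and Psmb8, against 9.55% of genes. A match of letters describes the window and does not show that a factor was bound there. The search took exact letters only, so a window without a match may still hold an element.

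The members were expressed at low levels. Their counts ran from 4 to 885 per library, 25 of the 36 had a mean under 5 CPM (counts scaled by the effective size of the library), and 8 had fewer than 10 counts in some library. Per kilobase of annotated exon, B2m, the light chain of class I molecules, had the highest level in wild type mice on the standard diet at 26.6 CPM per kb. It was followed by Ifi27, an interferon-induced mitochondrial protein, at 14.4 and the immunoproteasome subunit Psmb10 at 12.7 CPM per kb. Nlrc5, the activator of class I transcription, had the lowest at 0.0733 CPM per kb. On the GRCm38 assembly 9 members lay on chromosome 17, which carries the mouse MHC, and 15 members shared exon sequence with another annotated gene, 12 of them with a gene on the other strand. The sources used here do not state whether counting used strand, so reads of such pairs (Psmb9 with Tap1, Irf7 with Phrf1) cannot be told apart. Counts of H2-K1, H2-D1, H2-Q4 and H2-T23 are uncertain too, since near-identical class I copies can share reads.

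Libraries stood apart within the knockout groups, and this bears on every result below that uses the knockout libraries. KC872RL and KC873RR, both knockout on the standard diet, had a mean of 5.02 and 5.0 log2 CPM over 16 microglial markers, where the other 14 libraries had 3.67 to 3.94. These 2 expressed the Y-linked gene Ddx3y (63.1 CPM in each), as did KC890RL (65.0 CPM) and KC846L (56.4 CPM), wild type on the standard and on the ketogenic diet. Gfap, an intermediate filament of astrocytes, was at 2324 CPM in KC872RL, 1338 in KC873RR, 611 in KC893RL, 2016 in KC913RR and 1057 in KC934R, against 294 to 390 in the 8 wild type libraries. Kcna1 itself was at 107 to 130 CPM in wild type libraries and at 43.4 to 47.2 CPM in 7 knockout libraries. It was at 81.9 CPM in KC888LL, a library labelled knockout on the standard diet, so that its Kcna1 level goes against its label and its genotype is in doubt. The labels were kept, knockout below means labelled knockout, and calls that change without KC888LL are given. Markers of T and natural killer cells summed to 0.497 to 1.65 CPM per library with 1 of 12 passing the filter, Cd3d being at 0 counts in every group and Cd8b1 in 3 of the 4, and those of monocytes and neutrophils summed to 1.66 to 3.67 CPM with 1 of 7 passing.

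Averaged over the 36 members, expression was highest in the same 2 libraries. The mean of log2 CPM over the members was 2.58 in KC872RL, 2.53 in KC873RR, 1.83 in KC888LL and 1.85 in KC893RL, which made 2.20 ± 0.41 (SD, n = 4) for knockout mice on the standard diet. The wild type mice on that diet had 1.78, 1.71, 1.74 and 1.64, or 1.72 ± 0.06. KC888LL and KC893RL thus lay just above the highest wild type library of that diet, and the other 2 knockout libraries far above it. Wild type mice on the ketogenic diet had 1.72, 1.80, 1.86 and 1.67 (1.76 ± 0.09). Knockout mice on it had 2.01, 1.76, 1.91 and 1.68 (1.84 ± 0.15), so these 2 groups overlapped each other. The wild type libraries that expressed Ddx3y were KC890RL at 1.78 and KC846L at 1.67. KC890RL was the highest wild type library on the standard diet, and KC846L the lowest wild type library on the ketogenic diet. Each lay outside the range of the other wild type libraries of its own diet, and inside their range over both diets. Of the 36 members, 16 had their highest CPM in KC872RL and 12 in KC873RR, and for 19 members these 2 were the 2 highest of all 16 libraries.

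**Figure D1:**
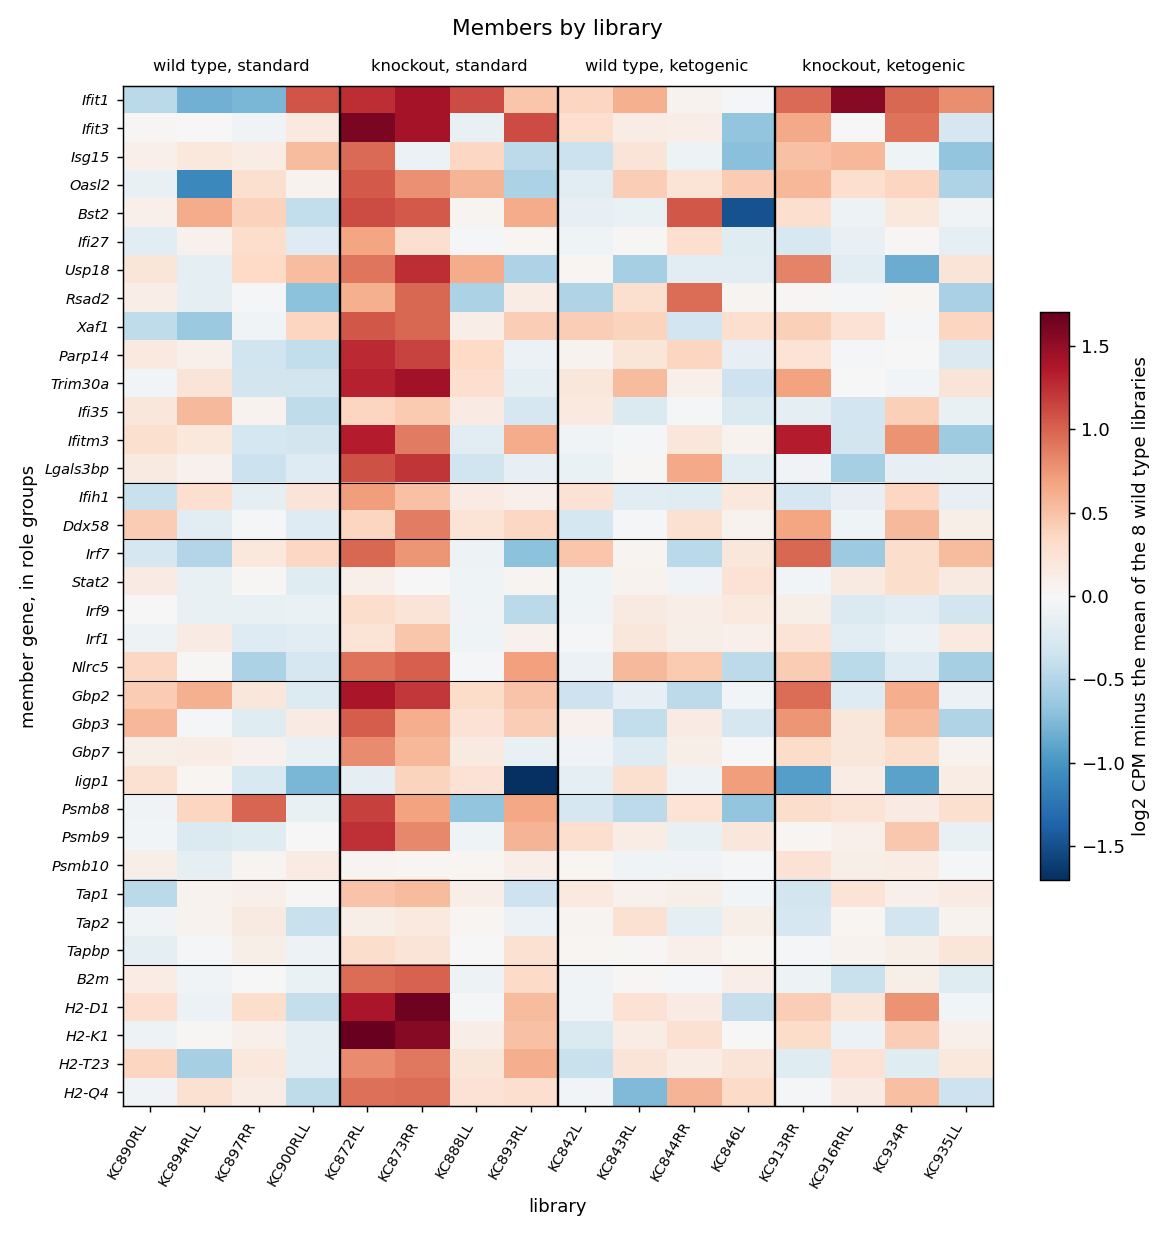
Heat map of log2 CPM of each member (rows, ordered by role) in each of the 16 libraries (columns, by group) minus the mean of the 8 wild type libraries; the colour scale is saturated at its ends. KC872RL and KC873RR, knockout on the standard diet, are above the wild type mean in most rows, with 29 and 27 of 36 members above all 8 wild type libraries.

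**Figure D2:**
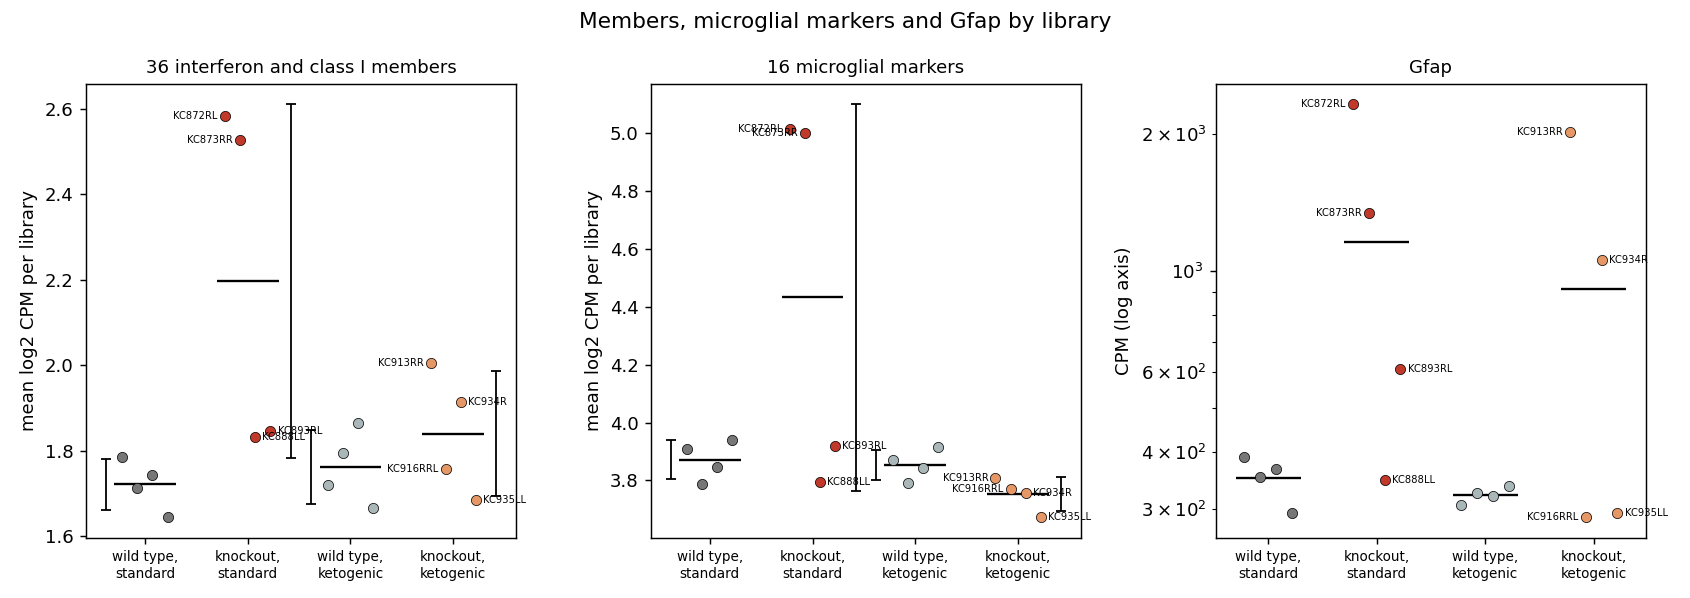
Mean log2 CPM of the 36 members, mean log2 CPM of the 16 microglial markers, and CPM of Gfap on a log axis, 1 point per library, with group means as lines and, in the first and second panel, SD as bars (n = 4). KC872RL and KC873RR are the highest in the first and second panel; KC913RR and KC934R have high Gfap with microglial marker means of 3.81 and 3.76.

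Each library of the knockout groups was then set against all 8 wild type libraries. In KC872RL 29 of 36 members were above every wild type library, where 23.6% of all tested genes were, and in KC873RR 27 were, where 19.6% of genes were. In KC893RL 9 were (17.9% of genes), Ifit3, Ifitm3, Nlrc5, Psmb9, Tapbp, B2m, H2-D1, H2-K1 and H2-T23, and in KC888LL 4 were (7.94% of genes), Ifit1, Oasl2, Usp18 and Gbp7. In the knockout group on the ketogenic diet the counts were 14 in KC913RR (23.9% of genes), 10 in KC934R (18.8%), 4 in KC916RRL (12.4%) and 2 in KC935LL (11%). KC913RR and KC934R shared Ifit3, Ifitm3, Ddx58, Gbp2, Gbp7, H2-D1 and H2-K1 among these. The share of all genes above every wild type library in both is not given, so this set has no value to be set against. Both libraries had high Gfap, with microglial markers at 3.81 and 3.76 log2 CPM. That was within the wild type range of 3.79 to 3.94 for KC913RR and just below it for KC934R.

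On the standard diet, all 36 members had a higher fitted level in knockout than in wild type mice, where 51.1% of all tested genes did, but none passed the test after adjustment. The median log2 fold change of the members was 0.55, against 0.0044 over all 17469 genes tested, and it was 0.26 over the 11 members with a mean of at least 5 CPM. edgeR's quasi-likelihood test called 0 members at an adjusted p under 0.05, where it called 0.00572% of all genes. At the unadjusted level, 18 members were higher at an unadjusted p under 0.05 (7.64% of genes) and 0 were lower (6.69% of genes). DESeq2 called 1 member, H2-K1, among 169 genes called in all. The level of a transcript in bulk tissue depends both on how many cells make it and on how much each makes, and these cannot be told apart. Of the 16 microglial markers, 16 were higher in the same contrast, 14 of them at an unadjusted p under 0.05 and 0 called, with a median log2 fold change of 0.69. Of 6 neuronal markers 5 were lower, 4 at that level and 0 called, and they summed to 5128.5 to 5770.8 CPM in the knockout and 5804.8 to 6013.2 CPM in wild type. Of 8 astrocyte markers 8 were higher, 2 at that level and 0 called (median log2 0.19), and they summed to 4603.8 to 6848.4 CPM against 4442.8 to 4958.3 CPM. Of 10 endothelial markers 8 were higher and 2 lower, 3 of the higher ones at that level and 0 called (median log2 0.18). Their sums were 219.92 to 258.05 CPM in the knockout and 212.75 to 235.5 CPM in wild type. The part of these lists in the members' values was not tested. Without KC872RL and KC873RR the median was 0.13, 24 of 36 members were higher and 0 passed an unadjusted p under 0.05. KC872RL and KC873RR were left out after being seen to be the highest, so a smaller median followed from that choice. The fit without them left KC888LL, whose genotype is in doubt, and KC893RL in the knockout group on this diet. Shares over all genes are not given for it, so these counts have no value to be set against. Without KC888LL edgeR called 10 members, B2m, Trim30a, Xaf1, Parp14, Tapbp, H2-K1, Psmb9, H2-D1, H2-T23 and Ifit3, among 1016 genes called in all.

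Of the 14 effectors of the type I response, all 14 had a higher fitted level in the knockout on the standard diet (51.1% of all genes), with a median log2 fold change of 0.73. At an unadjusted p under 0.05, 8 were higher (7.64% of genes) and 0 were called. Ifit3, which partners Ifit1 in binding foreign RNA, was at 2.63, 2.62, 2.50 and 2.94 CPM in wild type and at 8.14, 7.10, 2.38 and 5.76 CPM in KC872RL, KC873RR, KC888LL and KC893RL. Ifit3 was thus above every wild type library in 3 of 4 knockout libraries, and its fitted change was 2.18-fold (log2 1.13 ± 0.33 SE, adjusted p = 0.202, edgeR). Ifit1 was at 0.376, 0.269, 0.278 and 1.31 CPM in wild type and at 1.51, 1.69, 1.35 and 0.824 CPM in knockout, with 1 wild type library, KC900RLL, inside the knockout range (log2 1.26 ± 0.42, adjusted p = 0.210, edgeR). Without KC900RLL the log2 fold change of Ifit1 was 2.10 (adjusted p = 0.287, edgeR). Oasl2, an oligoadenylate synthetase-like protein, was at 1.82, 0.874, 2.43 and 2.09 CPM in wild type and 4.22, 3.49, 3.03 and 1.33 CPM in knockout, so the groups overlapped through KC893RL (log2 0.75 ± 0.33, adjusted p = 0.317, edgeR). Bst2, or tetherin, which holds budding virus particles at the cell surface, was at 1.44, 2.15, 1.81 and 0.979 CPM in wild type and 3.06, 2.91, 1.40 and 2.15 CPM in knockout, with KC872RL and KC873RR above the wild type and KC893RL level with its highest library (log2 0.58 ± 0.40, adjusted p = 0.534, edgeR). Isg15, a ubiquitin-like modifier that is a classical interferon-induced gene and whose promoter holds 3 copies of the response element core, differed least among the effectors given by library. It was at 0.878, 0.941, 0.903 and 1.24 CPM in wild type and 1.71, 0.757, 1.08 and 0.570 CPM in knockout, with only KC872RL above the wild type and KC873RR and KC893RL below it (log2 0.07 ± 0.36, adjusted p = 0.952, edgeR). The remaining effectors ran from Ifi35 at a log2 fold change of 0.07 to Trim30a, a TRIM family protein, at 1.02, and Trim30a, Parp14, Xaf1, Lgals3bp and Ifitm3 were among those with an unadjusted p under 0.05.

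The transcription factors and sensors had median log2 fold changes of 0.28 and 0.42. Irf7, the factor that amplifies type I interferon production, was at 0.878, 0.740, 1.25 and 1.44 CPM in wild type and at 2.26, 1.92, 1.03 and 0.633 CPM in knockout mice on the standard diet. KC872RL and KC873RR lay above the wild type range and KC893RL below it (log2 0.45 ± 0.39, adjusted p = 0.641, edgeR), and without those 2 high libraries the fitted difference was -0.36. Stat2, which joins Irf9 in the activated complex, was at 35.8, 29.7, 32.8 and 28.1 CPM in wild type and 34.4, 32.8, 30.8 and 33.5 CPM in knockout, with the knockout values inside the wild type range (log2 0.06 ± 0.09, adjusted p = 0.824, edgeR). Irf1, which drives class I and guanylate-binding protein genes, was at 7.40, 8.67, 6.74 and 6.92 CPM in wild type and 9.24, 11, 7.51 and 8.30 CPM in knockout (log2 0.28 ± 0.13, adjusted p = 0.354, edgeR), the groups overlapping through KC888LL and KC893RL. Nlrc5 was at 0.878, 0.672, 0.417 and 0.522 CPM in wild type and 1.36, 1.45, 0.648 and 1.14 CPM in knockout, or 6 to 27 counts per library, and 3 knockout libraries were above the wild type (log2 0.87 ± 0.37, adjusted p = 0.294, edgeR). The sensors Ifih1 (MDA5) and Ddx58 (RIG-I), helicases that detect double-stranded RNA, had log2 fold changes of 0.38 and 0.45 with adjusted p of 0.428 and 0.317 by edgeR.

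Among the GTPases, Gbp2 was at 1.82, 2.08, 1.53 and 1.11 CPM in wild type and 3.67, 3.20, 1.68 and 1.90 CPM in knockout mice on the standard diet. KC872RL and KC873RR were above the wild type range and the other 2 inside it (log2 0.68 ± 0.30, adjusted p = 0.321, edgeR). Gbp3 and Gbp7 had log2 fold changes of 0.47 and 0.36, and Iigp1, an immunity-related GTPase acting on intracellular parasites, had 0.02 ± 0.40 with overlapping groups.

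Psmb9 was at 0.941, 0.807, 0.834 and 0.979 CPM in wild type and at 2.46, 1.80, 0.919 and 1.52 CPM in knockout mice on the standard diet, above the wild type in 3 of 4 libraries (log2 0.91 ± 0.28, adjusted p = 0.202, edgeR). Psmb8 was at 1.38, 1.88, 2.99 and 1.31 CPM in wild type and 3.37, 2.39, 0.865 and 2.34 CPM in knockout, with KC888LL the lowest of all 8 (log2 0.25 ± 0.33, adjusted p = 0.783, edgeR). Psmb10 had a fitted difference of only 0.02 ± 0.08 on the log2 scale, its knockout range of 21.5 to 22.8 CPM lying inside the wild type range of 18.9 to 23.2. The constitutive subunits that these replace, Psmb5, Psmb6 and Psmb7, had log2 fold changes below 0 in 3 of 3 (median -0.11). Psmb5 was at 33.5 to 37.6 CPM in knockout against 41.2 to 43.8 CPM in wild type without overlap (log2 -0.22 ± 0.07, adjusted p = 0.202, edgeR). The share of all genes lower without overlap in this contrast is not given, so that separation has no value to be set against.

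Peptide transport and loading genes had log2 fold changes of 0.10 to 0.31, and the class I molecules they supply had 0.63 to 1.16. Tap1, a subunit of the peptide transporter, was at 2.89, 4.17, 4.24 and 4.05 CPM in wild type and 5.63, 5.88, 4.32 and 3.10 CPM in knockout mice on the standard diet (log2 0.31 ± 0.19, adjusted p = 0.485, edgeR), with KC893RL inside the wild type range. Tapbp, or tapasin, which joins the transporter to class I molecules, had a log2 fold change of 0.24 ± 0.08, and Tap2 of 0.10 ± 0.13. All 5 class I molecules were higher at an unadjusted p under 0.05 (7.64% of genes), with a median log2 fold change of 0.68. H2-K1, a classical class I heavy chain, was at 5.40, 5.85, 6.11 and 5.16 CPM in wild type and at 18.7, 17, 6.27 and 8.17 CPM in knockout. H2-K1 was the only member whose groups did not overlap, where 2.97% of all genes were higher without overlap. KC872RL and KC873RR had 3.32 and 3.02 times the wild type mean while KC888LL had 1.11 times (2.23-fold, log2 1.16 ± 0.27, adjusted p = 0.192, edgeR). H2-D1, the other classical heavy chain, was at 3.64, 2.76, 3.68 and 2.22 CPM in wild type and 7.99, 9.60, 2.92 and 4.37 CPM in knockout, with KC888LL inside the wild type range (log2 1.02 ± 0.31, adjusted p = 0.202, edgeR). B2m was at 25.2, 22.1, 22.9 and 21.3 CPM in wild type and 44.5, 46.1, 21.7 and 28.8 CPM in knockout, again with KC888LL inside the wild type range (log2 0.63 ± 0.18, adjusted p = 0.202, edgeR). The non-classical heavy chains H2-T23 and H2-Q4 both had log2 fold changes of 0.68. Without KC872RL and KC873RR the log2 fold changes were 0.36 for H2-K1, 0.24 for H2-D1 and 0.14 for B2m. Only KC888LL, whose genotype is in doubt, and KC893RL stood for the knockout in that fit. KC872RL and KC873RR were left out after being seen to be the highest for these genes, so smaller differences followed from that choice. They were also the only knockout libraries that expressed Ddx3y. The microglial markers were highest in KC872RL and KC873RR, and their part in the differences of the class I molecules was not tested.

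**Figure D3:**
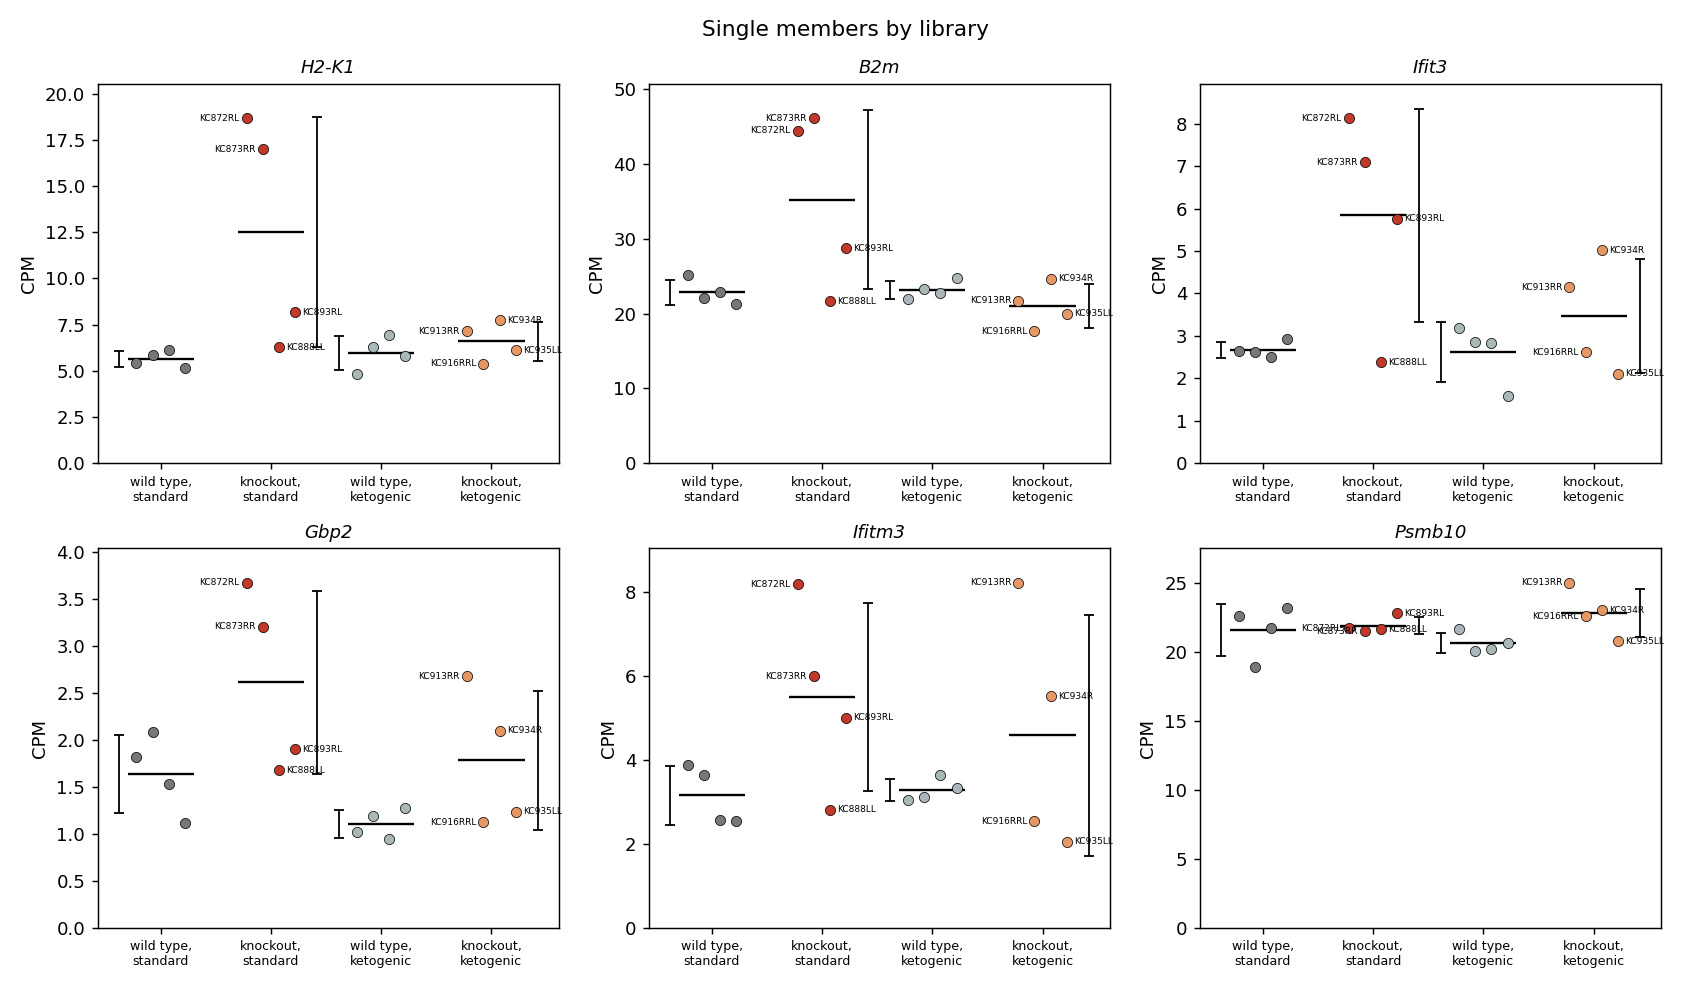
CPM of 6 members in each library, 1 point per library, with group means as lines and SD as bars (n = 4). H2-K1, B2m and Ifit3 are highest in KC872RL and KC873RR, Ifitm3 and Gbp2 are high in KC913RR and KC934R as well, and Psmb10 is between 18.9 and 25.0 CPM in all 16 libraries.

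On the ketogenic diet, the members had fitted differences between knockout and wild type mice on both sides of 0. Of the 36 members 21 were higher, where 51% of all genes were, and the median log2 fold change was 0.04. edgeR called 0 members, where 0.0172% of genes were called, and DESeq2 called 0. There were 2 members, Ifit1 and Gbp2, higher at an unadjusted p under 0.05 (5.24% of genes) and 0 lower (3.97% of genes). Ifit1 was at 0.761, 0.916, 0.588 and 0.546 CPM in wild type and at 1.2, 1.87, 1.21 and 1.06 CPM in KC913RR, KC916RRL, KC934R and KC935LL. Ifit1 was thus the only member whose groups did not overlap here, where 2% of genes were higher without overlap (1.88-fold, log2 0.91 ± 0.40, adjusted p = 0.505, edgeR), on 10 to 25 counts per library. Gbp2 was at 1.01, 1.19, 0.942 and 1.27 CPM in wild type and 2.67, 1.12, 2.10 and 1.23 CPM in knockout, so that KC913RR and KC934R were above the wild type and the other 2 inside its range (log2 0.69 ± 0.32, adjusted p = 0.537, edgeR).

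Some other members, named here after their values were seen, were also highest in KC913RR and KC934R. Ifitm3, which blocks virus entry from endosomes, was at 3.04, 3.13, 3.65 and 3.32 CPM in wild type and at 8.22, 2.54, 5.52 and 2.05 CPM in knockout. KC913RR and KC934R had 2.50 and 1.68 times the wild type mean and KC916RRL and KC935LL lay below every wild type library (log2 0.48 ± 0.37, adjusted p = 0.716, edgeR). Ifit3 was at 3.20, 2.86, 2.82 and 1.59 CPM in wild type and 4.14, 2.61, 5.02 and 2.11 CPM in knockout (log2 0.42 ± 0.33, adjusted p = 0.722, edgeR). H2-D1 was at 2.84, 3.56, 3.30 and 2.23 CPM in wild type and 4.01, 3.44, 5.13 and 2.87 CPM in knockout (log2 0.38 ± 0.31, adjusted p = 0.727, edgeR). In these members too the groups overlapped, with KC913RR and KC934R the highest of the 8 libraries. B2m was at 22, 23.2, 22.8 and 24.8 CPM in wild type and 21.7, 17.6, 24.7 and 19.9 CPM in knockout, 3 of 4 knockout libraries being below every wild type library (log2 -0.14 ± 0.19, adjusted p = 0.848, edgeR). Members also split the other way: KC913RR and KC934R were the lower 2 of the 4 knockout libraries for Iigp1 (0.869 and 0.883 against 1.94 CPM in both others), Tap2 (8.89 and 8.66 against 11.2 and 11.4 CPM) and H2-T23 (2.54 in both against 3.51 and 3.34 CPM). KC913RR and KC934R were also the 2 knockout libraries on this diet with high Gfap. Of 8 astrocyte markers, Gfap among them, 4 were higher and 4 lower in the knockout on this diet (median log2 0.05, 0 called), and their part in these values was not tested. Of 6 oligodendrocyte markers 6 were lower in this contrast, 5 at an unadjusted p under 0.05 and 0 called (median log2 -0.47). Their part was not tested.

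**Figure D4:**
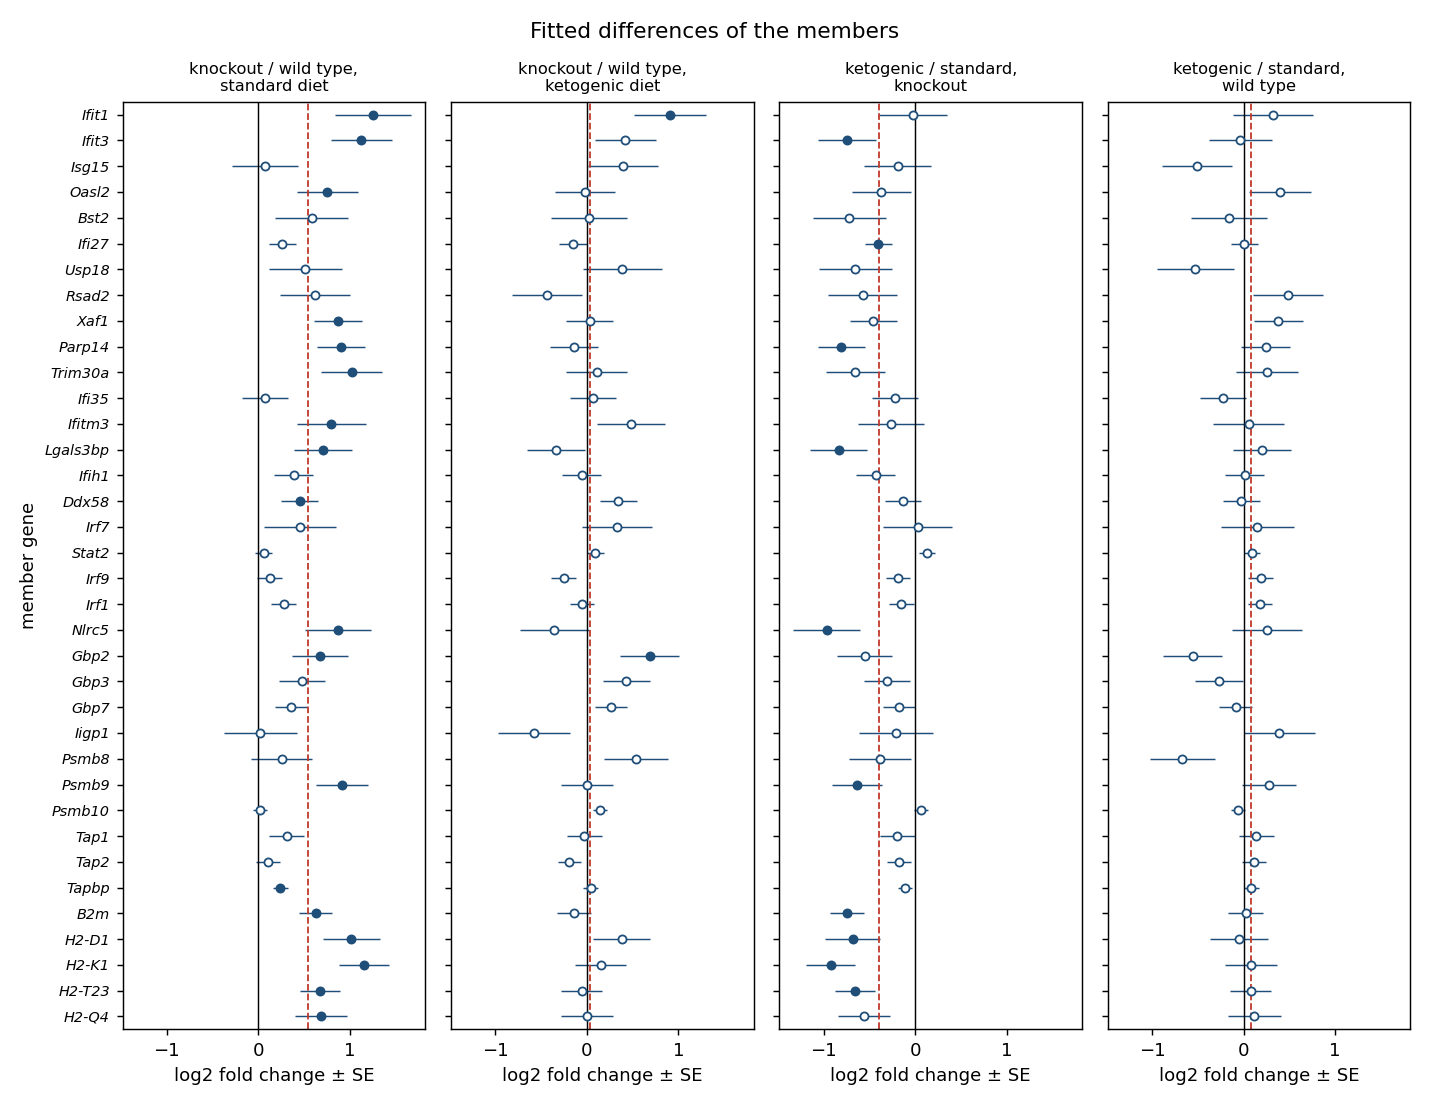
Log2 fold change of each member with its standard error in the 4 pairwise contrasts, ordered by role; filled points have an unadjusted p under 0.05 and the dashed line is the median of the members. On the standard diet all 36 members lie above 0 for knockout against wild type, 33 of 36 lie below 0 for ketogenic against standard diet in knockout mice, and the other 2 contrasts lie around 0.

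In knockout mice, the members had lower fitted levels on the ketogenic than on the standard diet, and again none passed the test after adjustment. This contrast shares the 4 knockout libraries on the standard diet with the one between genotypes on that diet, so the 2 are not independent. Of the 36 members 33 were lower, where 48.5% of all genes were, with a median log2 fold change of -0.39 against 0.0069 over all genes. Irf7, Stat2 and Psmb10 were the 3 that were not lower. edgeR called 0 members, where 1.16% of genes were called, and 10 members were lower at an unadjusted p under 0.05 (9.1% of genes) and 0 higher (7.83% of genes). For 0 members were the groups without overlap, where 3.72% of genes were lower without overlap. DESeq2 called 2, B2m and H2-K1, among 677 genes called in all. B2m, at 44.5, 46.1, 21.7 and 28.8 CPM on the standard diet and 21.7, 17.6, 24.7 and 19.9 CPM on the ketogenic diet, had the smallest p of the members (log2 -0.75 ± 0.19, adjusted p = 0.0673, edgeR). The groups overlapped, since KC888LL was at the level of the ketogenic group.

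H2-K1, at 18.7, 17, 6.27 and 8.17 CPM on the standard diet and 7.15, 5.38, 7.72 and 6.10 CPM on the ketogenic diet, had a fitted change of log2 -0.93 ± 0.27 (adjusted p = 0.106, edgeR). Nlrc5, at 1.36, 1.45, 0.648 and 1.14 CPM and then 0.935, 0.448, 0.552 and 0.411 CPM, had log2 -0.97 ± 0.37 (adjusted p = 0.190, edgeR). Of the 5 class I molecules 4 were lower at an unadjusted p under 0.05, where 9.1% of genes were. So were 4 of the 14 effectors, Ifit3, Ifi27, Parp14 and Lgals3bp, 1 of the 5 transcription factors, and 1 of the 3 immunoproteasome subunits, Psmb9. Ifit1 and Irf7 had log2 fold changes near 0, at -0.03 ± 0.37 and 0.03 ± 0.38. Without KC872RL and KC873RR the median was 0.03 and 19 of 36 members were higher on the ketogenic diet. The share over all genes is not given for that fit either, in which KC888LL and KC893RL stood for the standard diet. KC872RL and KC873RR were left out after being seen to be the highest, so a smaller difference followed from that choice. Without KC888LL edgeR called 7 members lower, B2m, Lgals3bp, Parp14, H2-K1, H2-D1, H2-T23 and Ifit3, among 1096 genes. Without KC893RL it called Parp14, among 218 genes. The summed microglial markers were 339 to 745 CPM per library on the standard diet and 308 to 329 CPM on the ketogenic diet in the knockout, with Itgam, an integrin of microglia, called lower (log2 -1.14 ± 0.27, adjusted p = 0.0483, edgeR), and their part in the members' values was not tested. Markers of oligodendrocytes were lower as well, 6 of 6 being called by edgeR, with sums of 4843 to 5308 CPM on the standard and 1868 to 3490 CPM on the ketogenic diet. Markers of choroid plexus, a tissue next to the hippocampus, summed to 46.6 to 548 and then to 31.3 to 52 CPM, 4 of 5 being lower and 0 called (median log2 -3.11). The 2 libraries that expressed Ddx3y were on the standard diet, and 0 of 4 knockout libraries on the ketogenic diet expressed it. Of the 4 Y-linked markers 3 were lower at an unadjusted p under 0.05. The part of these in the members' values was not tested.

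In wild type mice the diets gave no member an unadjusted p under 0.05 in either direction, where 2.44% of genes were higher and 3.01% lower at that level. edgeR and DESeq2 each called 0 members, where edgeR called 0.0114% of all genes. On the ketogenic diet 24 of 36 members were higher (49.9% of genes) and the median log2 fold change was 0.08. The smallest p was that of Psmb8, at 1.38, 1.88, 2.99 and 1.31 CPM on the standard and 1.17, 1.02, 1.71 and 0.864 CPM on the ketogenic diet with overlapping groups (log2 -0.67 ± 0.35, adjusted p = 0.939, edgeR). Of 6 oligodendrocyte markers 6 were lower on the ketogenic diet in wild type mice, 6 at an unadjusted p under 0.05 and 0 called (median log2 -0.49). Their part was not tested. The interaction, which compares the diet difference between the genotypes, called 0 members and 0% of genes by edgeR, and DESeq2 called 0 members. Of the members 31 of 36 had a value below 0 (49% of genes), 8 of them at an unadjusted p under 0.05 (4.09% of genes), and 0 were above 0 at that level (3.38% of genes). The 16 microglial markers had 16 values below 0, 9 at that level and 0 called (median -0.78), and their part was not tested. The median over the members was -0.39, or -0.13 without KC872RL and KC873RR, a fit chosen after these libraries were seen to be the highest. The smallest p of the members was that of B2m (log2 -0.77 ± 0.26, adjusted p = 0.654, edgeR).

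Fold changes were also set beside the promoter matches, as a description. In the knockout on the standard diet the 15 members with the core had a median log2 fold change of 0.62. The 15 with an entry but no exact match to the core had 0.45. For the ketogenic against the standard diet in the knockout these were -0.43 and -0.37. Between genotypes on the ketogenic diet they were 0.27 and 0.03, and between diets in wild type mice 0.01 and 0.14. Between genotypes on the standard diet the members with the core ran from Stat2 at 0.06 to Ifit1 at 1.26. Isg15, whose promoter holds 3 copies, was at 0.07 in that contrast.

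The interferons themselves were almost undetected. Of 12 ligand genes, among them Ifnb1 and Ifng, 10 had 0 counts in all 16 libraries, the highest count was 2 (Ifnl3) and 0 passed the filter. A difference in a ligand between groups was not detectable at this depth. Of the 12 receptor and kinase genes 11 were tested and 0 were called in any contrast. Ifnar2, a chain of the type I receptor, had log2 0.35 ± 0.12 in knockout against wild type mice on the standard diet (adjusted p = 0.212, edgeR) and -0.36 ± 0.12 for ketogenic against standard diet in the knockout (adjusted p = 0.123, edgeR). Socs3, a feedback inhibitor of cytokine receptors, had log2 2.67 ± 0.86 in knockout against wild type mice on the ketogenic diet (adjusted p = 0.417, edgeR).

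Other genes of the pathway, from lists that do not include the members, are given by counts for 2 contrasts, knockout against wild type mice on standard diet and ketogenic against standard diet in the knockout. Over all tested genes, 51.1% were higher in the first of these, 7.64% at an unadjusted p under 0.05, and 48.5% were lower in the second, 9.1% at that level. Of 25 other interferon-stimulated genes tested, 22 had a higher fitted level in the knockout on the standard diet (median log2 0.34, 0 called, 8 with an unadjusted p under 0.05) and 23 a lower one on the ketogenic diet in the knockout (median -0.42, 0 called, 8). Ifit3b, a near copy of Ifit3, had 1.00 ± 0.30 and -1.10 ± 0.30 in these contrasts, with adjusted p of 0.202 and 0.0801 by edgeR. The pair may share reads, so counts of both are uncertain. Of 17 nucleic acid sensing genes, 13 were higher in the first contrast (median 0.33, 0 called, 8 with an unadjusted p under 0.05) and 14 lower in the second (median -0.29, 0 called, 6). Irf8 and Tlr7, both expressed in microglia, had 1.19 ± 0.32 and 0.92 ± 0.34 in the first. Of 7 other interferon-induced GTPases, 6 were higher in the first and 6 lower in the second, 0 being called. Of 15 other class I and peptide loading genes 12 were higher in the first contrast (median 0.14) and 10 lower in the second (median -0.06). Mr1, which presents vitamin B metabolites, was called in the second contrast (log2 -0.79 ± 0.18, adjusted p = 0.0415, edgeR). It was at 5.19 to 7.84 CPM in knockout mice on the standard diet and 3.01 to 4.28 CPM on the ketogenic diet. These did not overlap, where 3.72% of all tested genes were lower without overlap. Psmb5 was called in the other direction, at 33.5 to 37.6 and then 42.9 to 45.9 CPM (log2 0.30 ± 0.07, adjusted p = 0.0436, edgeR). Of the 3 class II genes tested, 1 was higher and 2 lower in the first contrast, and 1 lower and 2 higher in the second, 0 being called. Cd74, the invariant chain, had log2 1.22 ± 0.41 in the first contrast (adjusted p = 0.212, edgeR) and -1.47 ± 0.42 in the second (adjusted p = 0.0929, edgeR). H2-DMa, which helps load class II molecules, had the opposite signs, -0.37 ± 0.18 and 0.41 ± 0.18, and Ciita, the class II activator, had -0.07 ± 0.23 and 0.13 ± 0.23. For the interaction, edgeR called 0 genes of these lists. Values were below 0 for 22 of the 25 interferon-stimulated genes, 14 of the 17 sensing genes, 5 of the 7 GTPases, 9 of the 15 class I and loading genes and 2 of the 3 class II genes, where 49% of all genes were. They were below 0 for 6 of the 11 receptor and kinase genes. The 3 constitutive proteasome subunits were all above 0, 1 of them at an unadjusted p under 0.05.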

How the data were processed

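The authors deposited 1 table of raw counts per gene with 1 column per animal. Per the submitters' processing notes it was made with DESeq2 and mm10 among the tools and builds named; aligner, counter, annotation and strand are not given in the sources used here. Columns carry an animal tag, genotype and diet, so each was assigned to its group only. Whether animals shared a litter or batch is not stated, and p-values measure the spread between these animals. Totals were 13440230 to 22309504 counts, and no 2 libraries of a group agreed within sampling noise (chi-square per gene at least 3.71).

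The tests used edgeR 4.0.16 (R 4.3.3): filterByExpr by group (17469 genes, at least 99.8% of counts), TMM, robust quasi-likelihood fit of all 16 libraries with 1 coefficient per group (12 residual degrees of freedom), two-sided F tests, Benjamini-Hochberg adjustment over all tested genes, threshold 0.05. Standard errors come from the F statistic, and a prior count of 2 entered log2 CPM. The fit was tested on simulated data. Promoters are from RefSeq (GRCm38.p6), positions and exon lengths from GENCODE M21.

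The members, the gene lists and the rule for named genes were chosen with earlier results of these data known. By that rule any member may be named; per-library values are given for 14 fixed members and for the member of smallest p in each contrast, and those for Psmb9, Ifitm3, Psmb10, Iigp1, Tap2 and H2-T23 were added after their values were seen. List genes are named where called or among the smallest p of their list. Alternatives were DESeq2 size factors, upper-quartile factors, other count filters, DESeq2 1.42.0, limma-voom (limma 3.58.1), no robust estimation, Xist as covariate, only the libraries in which Xist was over 100 CPM while Ddx3y was below 10 CPM, only the groups compared, only members of at least 5 CPM, each library left out, and, chosen after seeing the data, the fit without KC872RL and KC873RR. A gene of the pathway is not reported here.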

Additional observations from a re-analysis of the deposited data

Results flagged for a closer look

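Per-library values of the members were screened within each group of 4 for a library whose gap to its nearest neighbour was past Dixon's 95% critical value for a group of 4, as a share of the group's range. Ifit1 in wild type mice on the standard diet was at 1.31 CPM in KC900RLL, far above the other 3 libraries, with a gap of 0.896 of the range. Tap1 in the same group was at 2.89 CPM in KC890RL, far below the other 3, with a gap of 0.859 of the range. These were 2 of 64 values tested; over all 144 combinations of member and group 7 passed (4.86%), and chance passes about 1 in 20.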

How the results depend on the processing

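Other scalings shifted the median of all genes by -0.0247 to 0.0192. Over all alternatives, 692 values kept their direction and side of the threshold or stayed close, 14 moved further, 14 (single members, all given below) changed sign and 12 newly passed the threshold. Of the medians, that between diets in the knockout changed sign in the 2 subsets of libraries below, and that between genotypes on the ketogenic diet went from 0.04 to -0.05 over members of at least 5 CPM. DESeq2 called 1 member between genotypes on the standard diet and 2 between diets in the knockout. In the second of these edgeR without robust estimation called 1, B2m (log2 -0.75, adjusted p = 0.0467, edgeR). Leaving out each library gave 0 to 10 and 0 to 7 members called in these contrasts, and 0 in the others. The medians over leave-one-out fits were 0.39 to 0.69, -0.51 to -0.23, and -0.51 to -0.29 for the interaction. In the 12 libraries in which Xist was over 100 CPM and Ddx3y below 10 CPM the medians were 0.12, 0.035 and -0.12. Without KC872RL and KC873RR they were 0.13, 0.035 and -0.13. The 12 libraries also leave out KC872RL and KC873RR. Both fits thus used the same knockout libraries and are not 2 separate checks. Why these medians differed from those of all libraries was not tested. Members of at least 5 CPM had a median of 0.26 between genotypes on the standard diet. A prior count of 0.5 gave a mean over members of 1.66 in wild type mice on that diet.

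Between genotypes on the standard diet some members changed sign. Isg15 was -0.019 with limma-voom, -0.30 in the Xist libraries, -0.29 without KC872RL (-0.29 to 0.27 over single libraries left out) and -0.25 without both high libraries. Irf7 was -0.44 and -0.36, Psmb8 -0.38 and -0.25, and Tap1 -0.16 and -0.039 in the Xist libraries and without both, Psmb8 -0.020 without KC872RL (-0.020 to 0.56), and Stat2 -0.0090 with Xist as covariate. H2-D1 between diets in the knockout was 0.093 in both subsets, which hold the same knockout libraries. Low counts limit precision, since 8 members had under 10 counts in some library, and requiring 10 in every library left 28. No paired analysis was possible because the table's columns carry no replicate number.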
